A study of Mus musculus with 8 samples.

Results

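The dual-specificity MAP kinase phosphatases are enzymes that remove phosphate from both the threonine and the tyrosine of an activated MAP kinase. The 9 genes of the family described here are Dusp1, Dusp2, Dusp4, Dusp5, Dusp6, Dusp7, Dusp8, Dusp10 and Dusp16. They were taken by symbol, through their Ensembl identifiers, from the 49315 genes counted in the series. All 9 were found, and all 9 passed the low-count filter.

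MAP kinases relay signals from growth factor, cytokine, chemoattractant and stress receptors, and in neutrophils they take part in the control of migration, the oxidative burst, cytokine release and survival. The phosphatases differ in place and target. Dusp1, Dusp2, Dusp4 and Dusp5 are nuclear and inducible, Dusp6 and Dusp7 are cytoplasmic and act on ERK, and Dusp8, Dusp10 and Dusp16 act mainly on the JNK and p38 kinases. Transcription of several of them is raised by the pathways that they switch off, which makes them negative feedback genes, and Dusp1 is also a known target of cyclic AMP and of glucocorticoids.

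RNA was sequenced from neutrophils of 2-month-old C57BL/6 mice. The cells had been drawn into the peritoneal cavity with casein and separated by density. The 4 groups were H2R-deficient low-density neutrophils, H2R-deficient high-density neutrophils, wild-type low-density neutrophils and wild-type high-density neutrophils, with 2 libraries each. H2R is the histamine H2 receptor, whose signal through the Gs protein raises cyclic AMP. The labels give neither the H2R allele nor the number of animals behind a library. Nothing states that a group's 2 libraries are separate animals, so p-values measure only how these libraries spread, a spread that may be technical.

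The libraries held 19862716 to 24199215 counts. Hrh2, the gene for the receptor, was counted in every library, with 215 to 599 reads in the 4 H2R-deficient libraries, against 556 to 2003 in the 4 wild-type libraries. The adjusted p of that difference was 0.192 in high-density and 0.196 in low-density cells by edgeR's quasi-likelihood test for Hrh2, and since the deleted part is not described, these reads do not check the labels. All 13 neutrophil markers were detected in every library. Their summed level was lower in low-density cells, at 19500 and 28500 CPM in H2R-deficient low-density libraries, against 74100 and 76700 CPM in H2R-deficient high-density libraries. It was 32800 and 46800 CPM in wild-type low-density libraries, against 65600 and 70500 CPM in wild-type high-density libraries. CPM here is the read count scaled to a common library size, with library sizes adjusted by TMM, a method that sets the typical gene to no change between libraries.

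Sequences upstream of the family's genes were read from the RefSeq promoter table for GRCm38.p6, which matched 8 of the 9 members and did not match Dusp4. In the 250 bases before each start, both strands were searched for the cyclic AMP response element CRE (TGACGTCA), its short form (TGACG, which the full CRE holds on each strand), the AP-1 site (TGANTCA), the E-box (CACGTG) and the CArG box, which serum response factor binds. The full CRE was found in Dusp1, with its first base 143 bases before the start, and in Dusp8, at 107 and 63 bases before it. It stood in 1.55% of 32851 mouse promoter windows of this length. The short form also stood alone in Dusp1, 191 bases before the start, in Dusp5, at 55 bases, and in Dusp16, at 70 bases, and was found in 17.8% of windows. Dusp5 held 2 adjoining CArG boxes, at 82 and 72 bases before its start, a motif found in 1.47% of windows. An E-box was found in Dusp1, at 126 bases, and in Dusp2, at 109 bases, against 6.02% of windows, and an AP-1 site in none of the 8, against 6.75% of windows. No searched motif was found in Dusp6, Dusp7 or Dusp10. A match is a run of letters and shows no binding.

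The 4 upstream sequences that follow are shown because they belong to the 4 members that were lower in H2R-deficient low-density cells. The window of Dusp1 holds the full CRE, those of Dusp5 and Dusp16 hold only its short form, and that of Dusp6 holds none of the searched motifs. Dusp8, whose window also holds the full CRE, was not called in H2R-deficient low-density cells, at a log2 fold change of 0.57. Each sequence shown is written 5′ to 3′ on the gene's strand with searched motifs in capitals. It is cut where the gene's span in the count files begins.
Dusp1, chr17:26508520-26508722, minus strand: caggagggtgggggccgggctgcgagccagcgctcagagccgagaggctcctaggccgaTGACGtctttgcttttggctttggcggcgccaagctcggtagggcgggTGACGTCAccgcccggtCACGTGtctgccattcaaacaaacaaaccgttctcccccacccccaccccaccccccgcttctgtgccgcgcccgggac
Dusp5, chr19:53528895-53529108, plus strand: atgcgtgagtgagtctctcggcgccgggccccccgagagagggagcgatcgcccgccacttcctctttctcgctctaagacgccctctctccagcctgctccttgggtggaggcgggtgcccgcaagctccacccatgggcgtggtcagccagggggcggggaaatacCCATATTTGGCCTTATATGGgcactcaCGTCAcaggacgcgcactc
Dusp16, chr6:134792629-134792878, minus strand: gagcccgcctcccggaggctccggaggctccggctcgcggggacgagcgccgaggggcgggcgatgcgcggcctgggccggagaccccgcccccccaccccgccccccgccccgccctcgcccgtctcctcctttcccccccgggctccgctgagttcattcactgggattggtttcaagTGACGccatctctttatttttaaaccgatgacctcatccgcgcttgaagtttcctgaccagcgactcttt
Dusp6, chr10:99262981-99263230, plus strand: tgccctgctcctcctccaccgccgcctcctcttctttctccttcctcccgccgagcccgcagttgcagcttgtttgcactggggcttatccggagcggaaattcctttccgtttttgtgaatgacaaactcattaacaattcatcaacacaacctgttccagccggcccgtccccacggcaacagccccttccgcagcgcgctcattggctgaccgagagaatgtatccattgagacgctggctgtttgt

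Levels of different genes were compared per kilobase of exon, as RPKM over TMM-scaled libraries. Dusp1 was the most abundant member in every library, at a mean of 1070 RPKM over the 8 libraries with a range of 492 to 1950. Its lowest library was above the highest library of the next gene. Dusp5 followed at 127 RPKM (80.0 to 183), Dusp16 at 78.4 RPKM (36.2 to 117), Dusp6 at 44.7 RPKM (22.9 to 95.8) and Dusp2 at 22.1 RPKM (16.0 to 29.3).

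The remaining members were low. Dusp4 averaged 3.13 RPKM (2.08 to 4.02), Dusp7 1.80 RPKM (1.18 to 2.47), Dusp10 1.05 RPKM (0.290 to 2.40) and Dusp8 0.120 RPKM (0.0665 to 0.188). The order held within a library in 8 of 8 libraries for most neighbours. The exceptions were Dusp16 and Dusp6, in that order in 7 of 8, and Dusp7 and Dusp10, in that order in 6 of 8. Across libraries the ranges of Dusp5 and Dusp16, Dusp16 and Dusp6, Dusp6 and Dusp2, Dusp4 and Dusp7, and Dusp7 and Dusp10 overlapped, so these neighbours were not separated beyond their spread over all groups.

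Dusp1 made up 77.9% and 72.5% of the summed RPKM of the 9 members in H2R-deficient low-density libraries, against 80.2% and 76.2% in H2R-deficient high-density libraries. The shares were 72.7% and 72.4% in wild-type low-density libraries, against 85.9% and 82.8% in wild-type high-density libraries. The summed level of all 9 was 753 and 679 RPKM in H2R-deficient low-density libraries, against 1820 and 1680 RPKM in H2R-deficient high-density libraries. In wild-type cells it was 810 and 890 RPKM in low-density libraries, against 2270 and 1910 RPKM in high-density libraries. Under TMM scaling the family's total was thus lower in every low-density library than in every high-density library, and most of it was Dusp1.

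**Figure D1:**
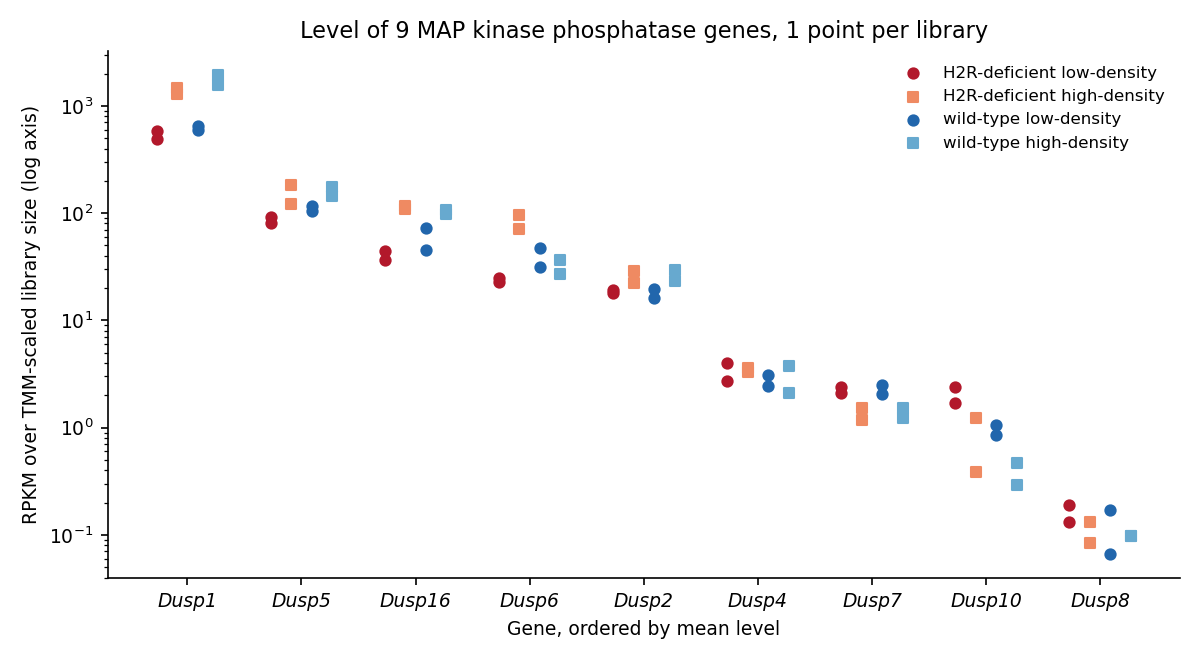
RPKM of each member (log axis) in the 8 libraries, 1 point per library, with groups side by side in the order of the legend. Dusp1 lies at 492 to 1950 RPKM and Dusp8 at 0.0665 to 0.188 RPKM, and the H2R-deficient high-density libraries are the highest for Dusp6 at 71.5 and 95.8 RPKM.

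The first question was how low-density neutrophils differ from high-density neutrophils of the same genotype. Under TMM scaling, in H2R-deficient cells 4 of the 9 members were lower in low-density than in high-density libraries, namely Dusp1, Dusp5, Dusp6 and Dusp16, and 2 were higher, Dusp7 and Dusp10. A member was called at an adjusted p under 0.05 in edgeR's quasi-likelihood test, adjusted over 14909 genes. In this comparison 23.9% of all genes tested were lower and 30.0% were higher. The median log2 fold change was −0.47 over the members and 0.10 over all genes. In wild-type cells 1 member was lower, Dusp1, and 0 were higher, where 4.15% of all genes tested were lower and 8.51% were higher. At an unadjusted p under 0.05 the wild-type comparison held 6 of the 9 members and 4976 of the 14909 genes. DESeq2 called 3 members lower and 0 higher, where it called 1486 of all genes lower and 1292 higher. The median was −0.09 over the members and 0.10 over all genes.

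Among the nuclear members, Dusp1 (MKP-1, chromosome 17, 26505590 to 26508519, minus strand) inactivates p38, JNK and ERK and is an immediate-early gene that restrains inflammatory cytokine output. It had 1580 and 1330 CPM in H2R-deficient low-density libraries, against 3930 and 3450 CPM in H2R-deficient high-density libraries. In wild-type cells it had 1590 and 1740 CPM in low-density libraries, against 5260 and 4250 CPM in high-density libraries. Every low-density library was below every high-density library. Dusp1 was 2.54-fold lower in H2R-deficient low-density cells, a log2 fold change of −1.34 ± 0.20 (SE, adjusted p = 0.000847), and 2.86-fold lower in wild-type low-density cells, −1.52 ± 0.20 (adjusted p = 0.00603). The 4 low-density libraries lay close together, between 1330 and 1740 CPM, whatever their genotype.

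Dusp5 (chromosome 19, 53529109 to 53542431, plus strand) is an ERK phosphatase of the nucleus and an ERK-induced feedback gene. It had 198 and 228 CPM in H2R-deficient low-density libraries, against 300 and 454 CPM in H2R-deficient high-density libraries. It had 260 and 288 CPM in wild-type low-density libraries, against 355 and 432 CPM in wild-type high-density libraries. The groups did not overlap in either genotype. The log2 fold change was −0.82 ± 0.23 (SE, adjusted p = 0.0131) in H2R-deficient cells and −0.52 ± 0.23 (adjusted p = 0.139) in wild-type cells, which did not pass. The call in H2R-deficient cells was lost without H2R-deficient high-density library 2 (−0.50, adjusted p = 0.117) or H2R-deficient low-density library 1 (−0.72, adjusted p = 0.0844). An antisense transcript overlaps Dusp5 in GENCODE M21, and the strand setting of the counts is not given.

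Dusp2 (PAC-1, chromosome 2, 127336159 to 127338376, plus strand), first known from activated T cells and also found in myeloid cells, had 38.6 and 36.0 CPM in H2R-deficient low-density libraries, against 58.4 and 45.0 CPM in H2R-deficient high-density libraries. It had 32.1 and 39.1 CPM in wild-type low-density libraries, against 58.7 and 46.6 CPM in wild-type high-density libraries. The low-density libraries lay below the high-density libraries in each genotype, but neither difference passed, at −0.47 ± 0.20 (SE, adjusted p = 0.0778) in H2R-deficient and −0.57 ± 0.20 (adjusted p = 0.0902) in wild-type cells on the log2 scale. Dusp4 (MKP-2, chromosome 8, 34807297 to 34819894, plus strand), a near relative of Dusp1, had 5.71 to 11 CPM over the 8 libraries, with overlapping groups. Its 95% interval on the log2 scale ran between −0.73 and 0.66 in H2R-deficient cells and between −0.79 and 0.62 in wild-type cells, so changes of either sign within those bounds were not detectable.

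Among the cytoplasmic members, Dusp6 (MKP-3, chromosome 10, 99263231 to 99267488, plus strand), the main feedback phosphatase of ERK, was lower in low-density than in high-density H2R-deficient cells. It had 64.0 and 70.0 CPM in H2R-deficient low-density libraries, against 268 and 200 CPM in H2R-deficient high-density libraries. It had 133 and 86.9 CPM in wild-type low-density libraries, against 103 and 76.0 CPM in wild-type high-density libraries. The H2R-deficient groups lay far apart, and the wild-type groups overlapped. Dusp6 was 3.49-fold lower in H2R-deficient low-density cells, −1.80 ± 0.26 on the log2 scale (SE, adjusted p = 0.000698). In wild-type cells the log2 fold change was 0.30 ± 0.25 (adjusted p = 0.427), with a 95% interval of −0.27 to 0.87, and its sign turned without wild-type low-density library 2 (−0.04). It passed as a rise by total counts (0.89, adjusted p = 0.0334) and by neutrophil marker scaling (0.99, adjusted p = 0.0185), scalings under which the median of all genes was above 0 as well.

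Dusp7 (chromosome 9, 106368632 to 106375724, plus strand), the second cytoplasmic ERK phosphatase, went the other way at a low level. It had 7.0 and 7.95 CPM in H2R-deficient low-density libraries, against 5.08 and 3.95 CPM in H2R-deficient high-density libraries, a log2 fold change of 0.72 ± 0.25 (SE, adjusted p = 0.0322). It had 8.30 and 6.88 CPM in wild-type low-density libraries, against 5.12 and 4.13 CPM in wild-type high-density libraries, 0.71 ± 0.25 (adjusted p = 0.0800). The log2 fold changes of the genotypes were close, and the wild-type one did not pass under TMM but did by total counts (1.29, adjusted p = 0.00749) and neutrophil markers (1.36, adjusted p = 0.0126). DESeq2 did not call the rise in H2R-deficient cells (0.68, adjusted p = 0.0730), and it was lost without H2R-deficient high-density library 2 (0.56, adjusted p = 0.161) and without either H2R-deficient low-density library, 1 (0.82, adjusted p = 0.0785) or 2 (0.63, adjusted p = 0.150).

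Among the JNK and p38 phosphatases, Dusp16 (MKP-7, chromosome 6, 134715468 to 134792625, minus strand), which shuttles between nucleus and cytoplasm and acts on JNK, was the most abundant. It had 283 and 342 CPM in H2R-deficient low-density libraries, against 842 and 910 CPM in H2R-deficient high-density libraries. It had 356 and 568 CPM in wild-type low-density libraries, against 827 and 761 CPM in wild-type high-density libraries. Every low-density library was below every high-density library. Dusp16 was 2.80-fold lower in H2R-deficient low-density cells, −1.49 ± 0.24 on the log2 scale (SE, adjusted p = 0.00110). In wild-type cells the value was −0.78 ± 0.24 (adjusted p = 0.0571), which did not pass in edgeR and passed in DESeq2 (−0.85, adjusted p = 0.00723) and without wild-type low-density library 4 (−1.16, adjusted p = 0.0419). Gm36328, a transcript within Dusp16 on the other strand, had at most 72 counts.

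Dusp10 (MKP-5, chromosome 1, 184013302 to 184075636, plus strand), a p38 and JNK phosphatase, was higher in low-density cells at 15 to 207 counts a library. It had 5.12 and 7.31 CPM in H2R-deficient low-density libraries, against 1.17 and 3.76 CPM in H2R-deficient high-density libraries, a log2 fold change of 1.34 ± 0.49 (SE, adjusted p = 0.0428). It had 3.24 and 2.62 CPM in wild-type low-density libraries, against 0.883 and 1.42 CPM in wild-type high-density libraries, 1.35 ± 0.52 (adjusted p = 0.111). The groups did not overlap in either genotype, and under TMM the H2R-deficient difference passed and the wild-type one did not. The wild-type difference passed by total counts (1.92, adjusted p = 0.0202) and by neutrophil markers (1.97, adjusted p = 0.00189). The H2R-deficient call was lost when the fit used only the 4 H2R-deficient libraries (1.45, adjusted p = 0.0578) and without any 1 of H2R-deficient high-density library 1 (0.73, adjusted p = 0.187), H2R-deficient low-density library 1 (1.58, adjusted p = 0.0607) or 2 (1.06, adjusted p = 0.178), or wild-type low-density library 2 (1.34, adjusted p = 0.0539) or 4 (1.36, adjusted p = 0.0535). Dusp8 (chromosome 7, 142079490 to 142095843, minus strand), best known from brain and heart, had only 7 to 33 counts a library. Its interval of 2.71 to 2.81 log2 units could not show a difference at this depth.

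**Figure D2:**
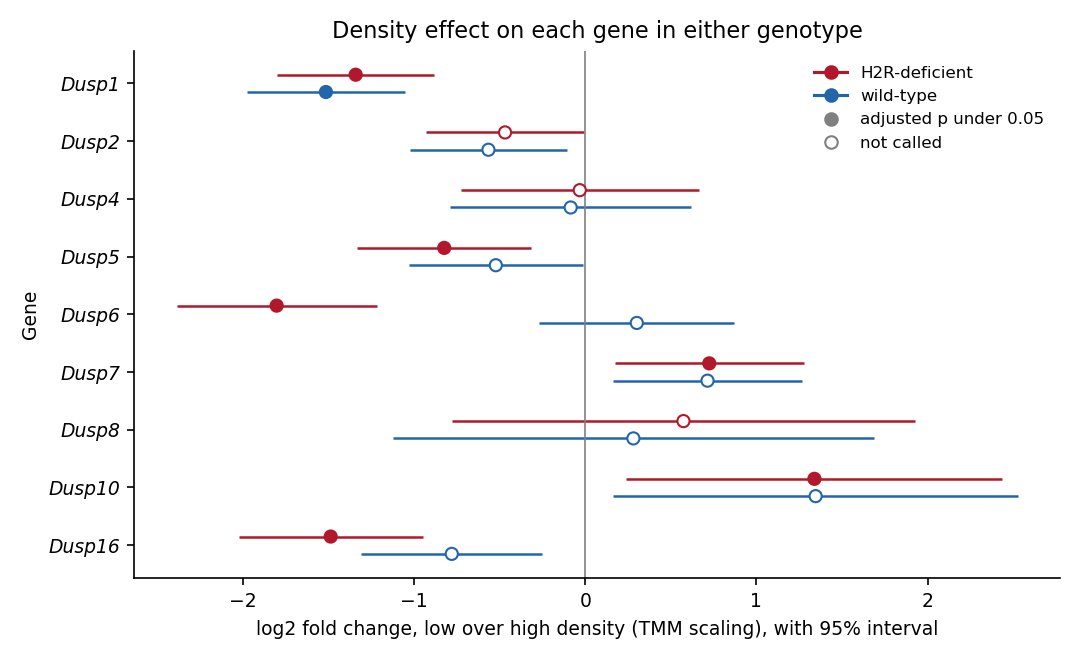
Log2 fold change of low over high density with its 95% interval for each member in H2R-deficient (red) and wild-type (blue) cells, filled where the adjusted p was under 0.05. Dusp1 is filled in both genotypes, and Dusp6 is at −1.80 in H2R-deficient cells and at 0.30 in wild-type cells.

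These differences are relative to the typical gene, and they depend on the scaling. With libraries scaled by total counts only, the median log2 fold change of all genes was 0.999 in H2R-deficient and 0.666 in wild-type cells. The calls over all genes were then 7690 higher and 389 lower in H2R-deficient cells, where TMM gave 4478 and 3566, and 4817 higher and 124 lower in wild-type cells, where TMM gave 1269 and 619. Scaling by the 13 neutrophil markers, an alternative chosen after the data were seen, moved the medians to 1.70 and 0.71. Relative to the median gene Dusp1 stood at −1.44, −1.43 and −1.41 in H2R-deficient cells under TMM, total counts and neutrophil markers, and at −1.61 in wild-type cells under all 3. For Dusp6 in H2R-deficient cells these values were −1.90, −1.90 and −1.91, and for Dusp16 −1.59 under all 3.

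Before the median was subtracted, the estimates under these scalings were as follows. By total counts Dusp1 had a log2 fold change of −0.43 (adjusted p = 0.0868) in H2R-deficient cells and −0.94 (adjusted p = 0.00749) in wild-type cells. By neutrophil markers it had 0.30 (adjusted p = 0.332) in H2R-deficient cells and −0.90 (adjusted p = 0.00950) in wild-type cells. Dusp6 in H2R-deficient cells had −0.91 (adjusted p = 0.0184) by total counts and −0.20 (adjusted p = 0.581) by neutrophil markers. Dusp16 in H2R-deficient cells had −0.59 (adjusted p = 0.0275) and 0.11 (adjusted p = 0.750), and Dusp5 had 0.08 (adjusted p = 0.768) and 0.79 (adjusted p = 0.0194), so that relative to neutrophil marker RNA Dusp5 was higher. In wild-type cells Dusp1 was thus lower in low-density libraries under each of the 3 scalings, and in H2R-deficient cells it passed the threshold under TMM only of these 3.

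Markers of other cell types moved with density as well. Low-density libraries carried more B cell marker RNA, with 8 of 8 markers higher in each genotype, at 733 and 931 summed CPM in H2R-deficient low-density libraries, against 43.5 and 65.3 CPM in H2R-deficient high-density libraries. In wild-type cells the B cell sum was 408 and 186 CPM in low-density libraries, against 50.4 and 57.2 CPM in high-density libraries. Dendritic cell markers were higher for 5 of 6 genes in each genotype, at 474 and 702 CPM in H2R-deficient low-density libraries, against 7.94 and 12.2 CPM in H2R-deficient high-density libraries, and at 451 and 208 CPM in wild-type low-density libraries, against 5.24 and 26.5 CPM in wild-type high-density libraries. No marker of either list was at 0 in any library. Markers of dividing cells were higher for 6 of 6 genes in H2R-deficient and 5 of 6 in wild-type low-density cells. NK cell markers were higher for 4 of 6 genes in H2R-deficient and 2 of 6 in wild-type low-density cells, at summed levels of 7.92 and 10.2 CPM in H2R-deficient low-density libraries, against 1.58 and 1.66 CPM in H2R-deficient high-density libraries. The NK cell sum ranged from 5.26 to 6.06 CPM in wild-type low-density libraries, against 0.765 to 0.885 CPM in wild-type high-density libraries, and 3 high-density libraries had 1 or 2 of its markers at 0. Of 9 macrophage markers 6 were higher and 1 lower in H2R-deficient low-density cells, although their sum was 245 to 304 CPM there, against 321 to 501 CPM in H2R-deficient high-density libraries, and 0 were called in wild-type cells, at 370 to 395 CPM in low-density libraries, against 542 to 671 CPM in high-density libraries. Of 4 monocyte markers 3 were higher and 1 lower in H2R-deficient low-density cells, with sums of 577 to 662 CPM, against 341 to 427 CPM in H2R-deficient high-density libraries, and 1 was higher in wild-type low-density cells. The mitochondrial share of counts was 0.590% in each H2R-deficient low-density library, against 0.311% and 0.159% in H2R-deficient high-density libraries, and 0.387% and 0.284% in wild-type low-density libraries, against 0.341% and 0.246% in wild-type high-density libraries. Of the neutrophil markers, 10 of 13 were lower in H2R-deficient and 3 of 13 in wild-type low-density cells. Of 4 mast cell markers tested, 2 were lower in H2R-deficient and 1 in wild-type low-density cells.

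Over the 8 libraries, the Pearson correlation of log2 levels with the summed neutrophil markers was 0.99 for Dusp16, 0.89 for Dusp5, 0.87 for Dusp1 and 0.63 for Dusp6, as a description of libraries that share their scaling and groups. Other marker lists correlated too. Dusp1 stood at −0.985 with NK cell, −0.971 with dendritic cell, −0.945 with B cell and 0.904 with mast cell markers, each larger in size than its neutrophil value. Dusp16 stood at −0.973 with dividing cell, −0.970 with B cell and 0.903 with mast cell markers. Dusp5 stood at −0.853 with NK cell markers, and Dusp6 at 0.703 with mast cell and −0.620 with dividing cell markers. The part of these cell types in the differences of the family was not tested. In a bulk sample, fewer cells of a type and less RNA per cell cannot be told apart.

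**Figure D3:**
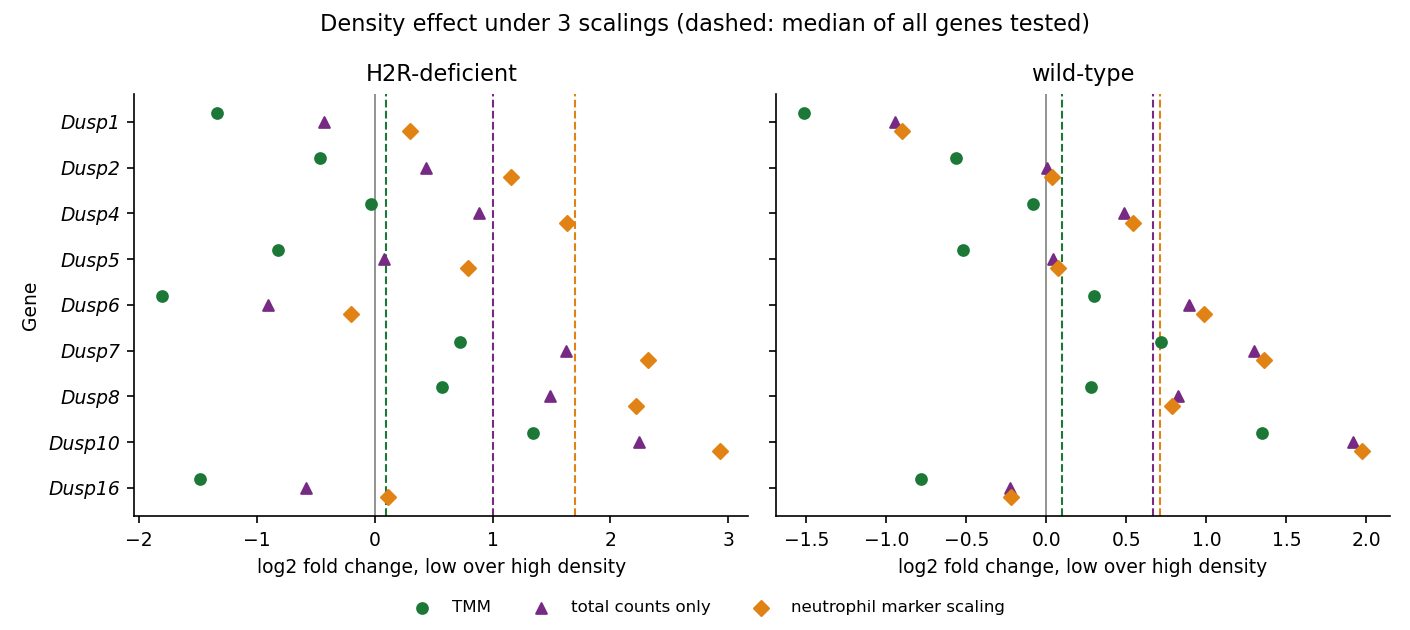
Log2 fold change of low over high density for each member under TMM, total counts only and neutrophil marker scaling, in H2R-deficient (left) and wild-type (right) cells, with the median of all genes as a dashed line. All members shift with the median, to 1.70 by neutrophil markers in H2R-deficient cells, and Dusp1, Dusp6 and Dusp16 stay left of it in H2R-deficient cells under every scaling.

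The second question was whether the family differed between H2R-deficient and wild-type cells of the same density. In high-density cells edgeR called 0 of the 9 members in either direction, where 0.0201% of all genes tested were higher and 0.188% were lower. At an unadjusted p under 0.05 there was 1 member, Dusp6, and DESeq2 called 1, also Dusp6. Of all 14909 genes, 2788 had an unadjusted p under 0.05, and DESeq2 called 290 higher and 409 lower. Dusp6 had 268 and 200 CPM in H2R-deficient high-density libraries, against 103 and 76.0 CPM in wild-type high-density libraries, so that the groups did not overlap. The log2 fold change was 1.39 ± 0.26 (SE, adjusted p = 0.0657), with a 95% interval of 0.81 to 1.97, and DESeq2 gave 1.37 (adjusted p = 0.000190). It stayed between 1.16 and 1.62 under every alternative run.

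Dusp1 had 3930 and 3450 CPM in H2R-deficient high-density libraries, against 5260 and 4250 CPM in wild-type high-density libraries. The groups did not overlap, and the log2 fold change of −0.37 ± 0.20 (SE, adjusted p = 0.354) did not pass. Dusp10, at 1.17 and 3.76 CPM in H2R-deficient high-density libraries, against 0.883 and 1.42 CPM in wild-type high-density libraries, had 1.09 ± 0.54 (adjusted p = 0.313) with overlapping groups. The other 6 members had log2 fold changes between −0.06 and 0.24, with adjusted p of 0.714 to 0.962.

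In low-density cells edgeR called 0 of the 9 members, and 0% of all genes tested were higher and 0% lower, while 3128 genes had an unadjusted p under 0.05 and DESeq2 called 387 higher and 528 lower. At an unadjusted p under 0.05 there were 3 members, and DESeq2 called 0. The 3 were Dusp6, Dusp16 and Dusp10. Dusp6 had 64.0 and 70.0 CPM in H2R-deficient low-density libraries, against 133 and 86.9 CPM in wild-type low-density libraries, a log2 fold change of −0.72 ± 0.25 (SE, adjusted p = 0.167). Dusp16 had 283 and 342 CPM in H2R-deficient low-density libraries, against 356 and 568 CPM in wild-type low-density libraries, with −0.57 ± 0.23 (adjusted p = 0.216). Dusp10 had 5.12 and 7.31 CPM in H2R-deficient low-density libraries, against 3.24 and 2.62 CPM in wild-type low-density libraries, with 1.08 ± 0.47 (adjusted p = 0.233). None of these 3 members passed the adjusted threshold. Their groups did not overlap, as was also so for Dusp1 and Dusp5, and 2 libraries against 2 can separate without a difference. The share of all genes that separate in this way is not given for any comparison here, so separation alone is not read as a result. Under TMM Dusp1 was nearly level, at −0.19 ± 0.20 (adjusted p = 0.606). Its 95% interval of −0.64 to 0.26 does not reach the size of its density effect under TMM. By total counts the Dusp1 value was 0.08 (adjusted p = 0.816), and by neutrophil markers it was 0.64 (adjusted p = 0.0666). The other 5 members lay between −0.36 and 0.44, with adjusted p of 0.375 to 0.967.

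The third question was whether the density effect itself differed between H2R-deficient and wild-type cells. The test of that difference called 0 of the 9 members, with 0% of all genes tested higher and 0% lower, while 3150 genes had an unadjusted p under 0.05 and DESeq2 called 606 higher and 384 lower. At an unadjusted p under 0.05 there was 1 member, Dusp6, and DESeq2 called 1 member, Dusp6. Its log2 difference, H2R-deficient minus wild-type, was −2.11 ± 0.36 (SE, adjusted p = 0.0906 in edgeR), with a 95% interval of −2.92 to −1.29, and −2.08 (adjusted p = 0.000154) in DESeq2. By total counts it passed in edgeR as well (−1.80, adjusted p = 0.0407), a setting that called 622 of all genes higher and 13 lower. It also passed without a low-count filter (−2.04, adjusted p = 9.79e-08), which called 901 of all genes higher and 309 lower. By neutrophil marker scaling it did not pass (−1.19, adjusted p = 0.0544). The highest Dusp6 level of the 4 groups was in H2R-deficient high-density cells, at 234 ± 48.2 CPM, against 67 ± 4.28 CPM in H2R-deficient low-density, 110 ± 32.8 CPM in wild-type low-density and 89.3 ± 18.9 CPM in wild-type high-density cells (SD, n = 2 each).

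For Dusp16 the difference was −0.71 ± 0.33 (SE, adjusted p = 0.257) on the log2 scale, and for Dusp1 0.17 ± 0.28 (adjusted p = 0.758). The 95% interval of Dusp1 was −0.46 to 0.81. The other 6 members lay between −0.30 and 0.29, with adjusted p of 0.614 to 0.999. A value that no library scaling touches is the share of Dusp6 in the family's summed RPKM. It was 3.04% and 3.69% in H2R-deficient low-density libraries, against 5.27% and 4.26% in H2R-deficient high-density libraries, and 5.88% and 3.49% in wild-type low-density libraries, against 1.62% and 1.43% in wild-type high-density libraries. Dusp1 made up 72.4% to 85.9% of that sum and was itself lower in wild-type low-density cells, so a rise of the share in wild-type low-density libraries does not show a rise of Dusp6.

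**Figure D4:**
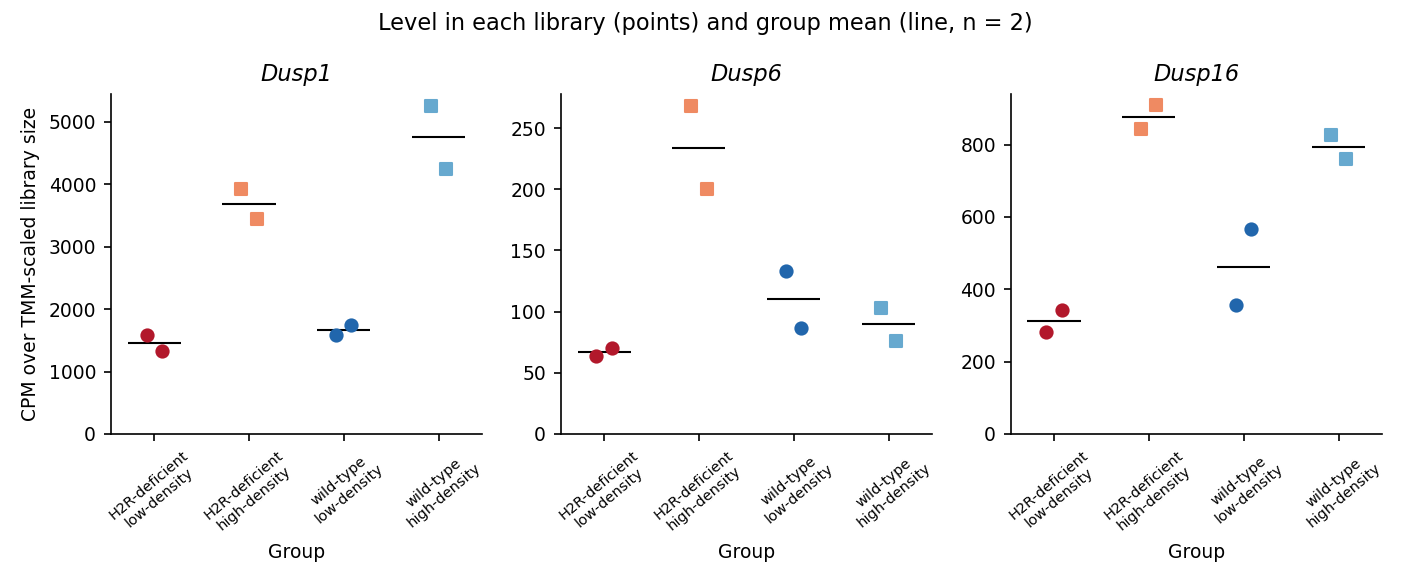
CPM over TMM-scaled libraries of Dusp1, Dusp6 and Dusp16 in each library (points) with the group mean (line, n = 2). Dusp1 and Dusp16 lie lower in low-density libraries of both genotypes on this TMM scale, whereas Dusp6 is highest in the H2R-deficient high-density libraries at 268 and 200 CPM and overlaps between densities in wild-type cells.

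The kinases that the phosphatases act on were described from lists by the same test, with the share of all genes called in each comparison, given above, as the background. All values in these lists are TMM-scaled log2 fold changes with their SE. Of 9 MAP kinase genes tested, 3 were higher and 3 lower in H2R-deficient low-density than high-density cells (list median −0.41, and −0.31 in wild-type cells). Mapk3, which encodes ERK1, was lower at −1.13 ± 0.18 (SE, adjusted p = 0.00114), while the p38 isoform genes Mapk11 and Mapk12 were higher at 1.67 ± 0.27 and 3.61 ± 0.61 from low levels, at means of 4.31 and 1.16 CPM. Of the more abundant p38 isoform genes, Mapk13 (mean 73.1 CPM) was lower at −1.48 ± 0.27 (adjusted p = 0.00196). Mapk14 (mean 92.4 CPM) was not called, at −0.93 ± 0.48 (adjusted p = 0.13). In wild-type cells 1 was higher, Mapk12 at 2.53 ± 0.64 (adjusted p = 0.0357). Of 7 MAP kinase kinase genes, 2 were higher and 3 lower in H2R-deficient cells (median −0.29, and −0.37 in wild-type cells), among them Map2k4, an activator of JNK, at −1.59 ± 0.26, Map2k1, which activates ERK, at −0.84 ± 0.17, and Map2k7, a second JNK activator, at 1.54 ± 0.27. Both lists turned with the scaling in H2R-deficient cells. For the MAP kinases total counts gave 4 higher and 0 lower (median 0.49) and neutrophil markers 6 higher and 0 lower (median 1.2). For the MAP kinase kinases these were 4 higher and 1 lower (median 0.62) and 5 higher and 0 lower (median 1.35).

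Of 14 MAP3 kinase genes, 1 was higher and 7 were lower in H2R-deficient low-density cells (median −0.75, and −0.31 in wild-type cells), led by Map3k11 (−1.36 ± 0.20), Map3k8, which encodes the kinase Tpl2 (−1.13 ± 0.20), and Map3k5, which encodes ASK1 (−1.32 ± 0.25). This list also turned with the scaling in H2R-deficient cells, with 5 higher and 1 lower by total counts (median 0.16) and 8 higher by neutrophil markers (median 0.89). In wild-type cells Map3k5 was lower (−1.10 ± 0.25, SE) and Map3k1 higher (0.86 ± 0.23). Of 10 kinases activated by MAP kinases, 8 were lower in H2R-deficient cells (median −0.66, and −0.33 in wild-type cells), led by Mapkapk2 (−1.10 ± 0.18), Rps6ka2 (−1.32 ± 0.25) and Rps6ka4 (−0.94 ± 0.23). In wild-type cells Mapkapk2, which encodes the p38-activated kinase MK2, was lower alone at −0.88 ± 0.18. By total counts 2 of these 10 were called higher in H2R-deficient cells and the list median was 0.25, so their direction holds only relative to the typical gene.

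Of 6 Sprouty and Spred genes tested, which encode inhibitors upstream of ERK, 1 was lower in H2R-deficient cells, Spred2 at −0.97 ± 0.22 (list median 0.24, and 0.70 in wild-type cells). Ptpn7, a tyrosine phosphatase that binds MAP kinases by a kinase interaction motif, was lower in H2R-deficient low-density cells at −0.94 ± 0.27 (adjusted p = 0.0171) and was not called in wild-type cells at 0.51 ± 0.27 (adjusted p = 0.219). Neither other scaling called it in H2R-deficient cells, and each called it higher in wild-type cells. Of 12 atypical and other dual-specificity phosphatases tested, 5 were higher and 2 lower in H2R-deficient cells (median 0.83, and 0.17 in wild-type cells), led by Dusp3 (2.03 ± 0.24), Dusp22 (3.87 ± 0.47) and Dusp12 (2.78 ± 0.42). Dusp22 was also higher in wild-type low-density cells (2.10 ± 0.41). Dusp9, a further MAP kinase phosphatase that is not among the 9 members, was among the 4 genes of that list that did not pass the low-count filter.

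Immediate-early genes are switched on rapidly by ERK, p38 and other signals. In H2R-deficient low-density cells 15 of 20 were lower under TMM, with a list median of −1.18, and in wild-type low-density cells 9 of 20 were lower, with a median of −1.41. The other 5 did not pass in H2R-deficient cells, among them Jund at −0.06 and Nr4a2 at 0.43, and 11 did not pass in wild-type cells. Wild-type high-density libraries 2 and 4 differed widely for some of these genes, with Fos at 956 and 339 CPM, Zfp36 at 2740 and 1240 CPM and Fosb at 214 and 23.4 CPM. They were close for others, with Ier3 at 1810 and 1700 CPM and Fosl1 at 43.4 and 44.2 CPM. The size of the wild-type fall thus rests in part on library 2 for some genes. Ier3, an early survival gene, was lower at −1.62 ± 0.22 (SE) in H2R-deficient and −1.44 ± 0.22 in wild-type cells. Junb, an AP-1 subunit, was lower at −1.47 ± 0.23 in H2R-deficient and −1.43 ± 0.23 in wild-type cells. Klf6 was lower in H2R-deficient cells (−1.07 ± 0.22) and stood at −0.47 ± 0.21 in wild-type cells (adjusted p = 0.155), which did not pass. Nr4a1, an orphan nuclear receptor, was lower in H2R-deficient (−1.19 ± 0.25) and in wild-type cells (−1.48 ± 0.25). As for Dusp1, the wild-type result changed less between scalings. In wild-type cells 7 of 20 were lower by total counts and 8 by neutrophil markers, with medians of −0.85 and −0.84. In H2R-deficient cells 2 were lower and 2 higher by total counts, with a median of −0.27, and 6 were higher by neutrophil markers, with a median of 0.45.

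Of 9 genes for transcription factors known at promoters of the family, 7 were lower and 2 higher in H2R-deficient low-density cells under TMM (median −0.99, and −0.41 in wild-type cells), where total counts gave 1 lower and 2 higher and neutrophil markers 4 higher. They were led by Atf1, a CRE-binding factor, at −1.09 ± 0.16 (SE), Nr3c1, the glucocorticoid receptor, at −1.35 ± 0.20, and Ets2 at −1.40 ± 0.23. In wild-type cells Ets2 was lower (−1.33 ± 0.23) and Ets1 higher (1.06 ± 0.24). Of the 88 genes of these lists that were tested, edgeR called 0 between genotypes at high density, 0 at low density and 0 in the difference of density effects. At an unadjusted p under 0.05 there were 28, 22 and 21 in these 3 comparisons, and DESeq2 called 11, 9 and 5. Over all 14909 genes there were 2788, 3128 and 3150 at that unadjusted threshold. DESeq2 called 290 of all genes higher and 409 lower at high density, 387 and 528 at low density, and 606 and 384 in the difference.

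The genes whose pattern was most like that of the 3 most abundant members were sought among 7801 genes of at least 5 CPM by Pearson correlation of log2 levels over the 8 libraries. For Dusp1 they were Hnrnpc (0.987), Junb (0.987) and Tbc1d15 (0.987), for Dusp5 Nsun6 (0.994), Unc93a (0.991) and Tug1 (0.991), and for Dusp16 Unc45a (0.996), Ifitm3 (0.993) and Vav3 (0.992). Within the family, Dusp1 correlated at 0.90 with Dusp2, 0.90 with Dusp16 and 0.80 with Dusp5, at −0.87 with Dusp7 and −0.85 with Dusp10, and at 0.44 with Dusp6. These values describe 8 libraries of 4 groups, which share their scaling and the difference between densities.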

How the data were processed

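The deposited files hold raw read counts per gene, not normalized, per the file headers, for 8 libraries. The genome build was GRCm38, and the tools named were STAR 2.5.2b, Trimmomatic 0.36, Subread 1.5.2 with featureCounts, and bcl2fastq 2.17.1.14, per the submitters' processing notes. Not given in the sources used here are the strand setting, the treatment of reads with several matches and the annotation release. Gene symbols came from GENCODE M21, which matched 48970 of 49315 identifiers.

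Genes were filtered with edgeR's filterByExpr, which left 14909, scaled by TMM and fitted with a robust quasi-likelihood model with 1 mean per group over all 8 libraries (edgeR 4.0.16, R 4.3.3, 4 residual degrees of freedom, common biological coefficient of variation 0.236). P-values were adjusted by Benjamini-Hochberg over all genes tested, and 0.05 was the threshold. Standard errors were derived from the fold change and its F statistic. An exact permutation of 2 against 2 libraries cannot pass 0.05. Within each group the libraries differed by more than sampling noise (chi-square per degree of freedom 33.7 to 53.5). At these depths a floor of 3 counts is 0.124 to 0.151 CPM, which covers counting error only. The tests were checked on simulated counts.

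The members and gene lists were chosen with earlier results of these data known. Named from each list were up to 3 called genes with the lowest adjusted p in a density comparison, with Mapk13, Mapk14, Jund and Nr4a2 given beside them. Alternatives were other scalings, no filter, DESeq2 1.42.0, the compared groups alone, a replicate block and leaving out each library.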

Additional observations from a re-analysis of the deposited data

How the results depend on the processing

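Scaling had the largest effect. With total counts only, 2 members were called lower in H2R-deficient low-density cells, 3 higher in wild-type low-density cells and 1 lower in the difference of effects. Estimates that changed sign were, in H2R-deficient cells, Dusp2 (0.44), Dusp4 (0.89) and Dusp5 (0.081), in wild-type cells Dusp2 (0.0013), Dusp4 (0.49) and Dusp5 (0.042), and Dusp1 between genotypes at low density (0.084). With neutrophil marker scaling, chosen after seeing the data, 6 members were called higher and 0 lower in H2R-deficient low-density cells, 3 higher in wild-type low-density cells, 1 higher between genotypes at high density, 3 higher at low density and 1 higher, Dusp1, in the difference of effects. Of all 14909 genes, 10692 were then called higher and 36 lower in H2R-deficient low-density cells, and 3848 and 107 in wild-type low-density cells. Between genotypes 33 genes were higher and 405 lower at high density, 4492 and 22 at low density, and 3086 and 6 in the difference. Signs changed in H2R-deficient cells for Dusp1 (0.30), Dusp2 (1.15), Dusp4 (1.63), Dusp5 (0.79) and Dusp16 (0.11), in wild-type cells for Dusp2 (0.033), Dusp4 (0.54) and Dusp5 (0.076), between genotypes at low density for Dusp1 (0.64), Dusp6 (0.011) and Dusp16 (0.27), and in the difference for Dusp16 (0.33). These shifts follow the median of all genes.

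Without a low-count filter 1 member was called higher and 2 lower in wild-type low-density cells, 1 higher between genotypes at high density, 1 higher and 1 lower at low density, and 1 lower in the difference. Of 28092 genes in that fit, 2190 were higher and 1171 lower in wild-type low-density cells, and 332 and 763 between genotypes at high density. At low density 631 were higher and 729 lower, and in the difference 901 and 309. DESeq2 called 1 higher in H2R-deficient low-density cells, 3 lower in wild-type low-density cells, 1 higher between genotypes at high density and 1 lower in the difference. Its size factors in edgeR gave 2 lower in wild-type cells, and a fit of the compared groups alone 1 higher in H2R-deficient cells. Over all genes DESeq2 called 4118 higher and 3689 lower in H2R-deficient low-density cells. Its size factors in edgeR gave 1179 higher and 879 lower in wild-type cells. The compared groups alone gave 4937 higher and 3182 lower of 14106 genes in H2R-deficient cells. Dusp4 in H2R-deficient cells changed sign without the filter (0.074) and in the fit of compared groups alone (0.091). The cause was not tested.

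Leaving out 1 library leaves 1 library in its group. Calls of members in the density comparisons changed in some of these fits, as given above for Dusp5, Dusp7, Dusp10 and Dusp16. Signs changed for Dusp4, between −0.34 and 0.22 in H2R-deficient and between −0.45 and 0.40 in wild-type cells, and in wild-type cells for Dusp6, between −0.039 and 0.57, and Dusp8, between −0.53 and 0.80. Over all genes the wild-type comparison called as few as 86 higher and 37 lower, without wild-type high-density library 2, and 205 higher and 18 lower without wild-type low-density library 2. The genotype comparisons and the difference called 0 members in each of these fits.

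Library numbers are shared between densities of a genotype (1 and 2, or 2 and 4), but nothing says that a number marks an animal. Deviations of same-numbered libraries from their group means correlated at 0.326 and 0.155. With the number as a replicate block, 2 members were called lower in wild-type cells, Dusp1 and Dusp16 (−0.82, adjusted p = 0.0283), and 1 in the difference, Dusp6 (−2.08, adjusted p = 0.0438), and no other call of a member changed. Of all 14909 genes, this fit called 1648 higher and 972 lower in wild-type cells, and 12 higher and 16 lower in the difference. No paired fit was possible between genotypes, since they share 1 number. Counts of 7 to 33 limit Dusp8, and 15 to 207 limit Dusp10.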
